A study of Mus musculus with 6 samples.

Results

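The genes described here were the subunits of the respiratory chain, 101 of the 54532 genes in an expression table of 6 mouse melanoma tumors. They were taken by gene symbol, with no measured value: messenger RNAs of the mitochondrial genome (mt-Nd, mt-Co, mt-Atp and mt-Cytb) and nuclear genes whose symbols begin with Nduf followed by a, b, c, s or v and a digit, with Uqcr, with Cox followed by a digit from 4 to 8 and a letter, or with Atp5, as the subunits of complexes I, III and IV and of the ATP synthase (complex V) do. That gave 13 mitochondrial and 88 nuclear members, and 5 matching symbols that end in -ps and a number were left out. GENCODE M21 annotates 94 of the 101 as protein-coding and 7 as pseudogene or noncoding. The 6 samples were whole tumors, 3 labelled Gli2CA and 3 labelled NTC, harvested on day 28 after 1000000 cells in 100 uL of a matrigel and buffered saline mix had been implanted into C57Bl/6 mice. Tumors labelled Gli2CA came from a melanoma cell line with mutant Braf, given active Gli2, a transcription factor of Hedgehog signalling. Tumors labelled NTC came from the same line given a non-targeted control. All cells had been kept in puromycin at 1 ug/mL. The genetic changes of the line were thus shared by both groups. The labels do not say which promoter drove Gli2, whether a line was a clone, how old the mice were or whether each tumor came from its own mouse. The p-values therefore cover only the variation among these 6 samples, part of which may be technical. A whole tumor also holds host cells, and in such bulk samples fewer cells of a type and less RNA per cell cannot be told apart.

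The respiratory chain lies in the inner mitochondrial membrane. Complexes I, III and IV pass electrons from NADH to oxygen and pump protons, and complex V uses the returning protons to make ATP. Each of these complexes is built from subunits of both genomes: the mitochondrial genome encodes a few hydrophobic core subunits, transcribed as long polycistronic RNAs inside the organelle, while nuclear genes encode all other subunits, which are imported after synthesis in the cytosol. Complex II is encoded by nuclear genes alone.

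The label was checked first on Gli2 itself. Gli2 had 3.22, 5.82 and 1.61 FPKM (fragments per kilobase of transcript, scaled to the fragments of the library) in the tumors labelled Gli2CA, against 8.88, 11.1 and 7.96 FPKM in NTC tumors. Every tumor labelled Gli2CA was thus below every NTC tumor (log2 fold change -1.40, SE 0.38, limma adjusted p = 0.0853), which goes against the label if it means raised messenger RNA. The labels do not describe the construct, so whether its RNA is counted here cannot be told. The fragments behind the 6 columns, recovered from the steps of the FPKM values, numbered between 16225370 and 22274064. Of 15820 genes tested, limma called 55 at an adjusted p below 0.05 (0.348% of tested genes), 42 higher and 13 lower in tumors labelled Gli2CA. Of the members, 95 passed the filter of a mean of 0.5 FPKM over the 6 tumors. The 6 below it were Cox7b2, Cox8c, Ndufa11b, Ndufs6b, Atp5c1-ps and a second locus named Atp5o.

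None of the 95 tested members was called by limma, and limma-voom on the recovered fragments also called 0 (with 0.664% of all tested genes called). Their unadjusted values split by genome. At an unadjusted p below 0.05, 10 of 13 mitochondrial members were lower and 0 higher in tumors labelled Gli2CA, where 14.7% of all tested genes were lower. Of the 82 nuclear members tested, 36 were higher and 0 lower, where 12.8% of all tested genes were higher. Limma-voom gave 9 mitochondrial members lower (15.6% of all tested genes) and 37 nuclear members higher (12.3%). Members of one complex are counted in the same libraries and are not independent of each other, so these counts describe the 6 tumors.

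Several mitochondrial messenger RNAs have identical copies in the nuclear genome, so the sequences come first. The mouse reference carries on chromosome 1 a nuclear stretch whose annotated pseudogenes repeat the mitochondrial genome from within mt-Co1 to within mt-Nd4. In a BLAST search of the GENCODE M21 transcripts, 5 mitochondrial members had an annotated nuclear copy of at least 99% identity over at least 95% of the gene: mt-Co2 (Gm28661), mt-Atp6 (Gm10925), mt-Co3 (Gm28437), mt-Nd3 (Gm28438) and mt-Nd4l (Gm10222). A stretch of 90 bases of mt-Co2 is shown beside its copy because the pair has 0 mismatches, and a stretch of mt-Cytb because its nearest copy differs. Coordinates are GRCm38, capitals mark mismatches between the 2 sequences of a pair, and sequences are those of the GENCODE M21 transcripts.
mt-Co2, chrM:7112-7201, plus strand: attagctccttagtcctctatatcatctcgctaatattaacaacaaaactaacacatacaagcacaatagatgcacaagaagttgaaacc
Gm28661, chr1:24615377-24615466, minus strand: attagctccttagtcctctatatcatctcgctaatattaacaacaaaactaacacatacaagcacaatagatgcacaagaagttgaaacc
mt-Cytb, chrM:14245-14334, plus strand: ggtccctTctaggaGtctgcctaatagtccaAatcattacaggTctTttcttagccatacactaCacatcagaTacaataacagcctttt
Gm11410, chr4:80004089-80004178, plus strand: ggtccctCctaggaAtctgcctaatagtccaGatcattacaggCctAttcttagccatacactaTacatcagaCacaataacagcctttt
A fragment from the first pair cannot be assigned to either locus by its sequence, while one from the second pair can, with 7 mismatches in 90 bases. The search found copies over part of mt-Co1 (31.3% of the gene, 99.8% identity), mt-Nd4 (63.6%, 100% identity) and mt-Atp8 (21.1%, 100% identity). The nearest copies of mt-Nd2, mt-Nd5, mt-Nd6 and mt-Cytb had at most 96.7% identity, and none was found for mt-Nd1.

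The 7 members without an annotated full-length identical copy, mt-Atp8 apart, were the high ones. In each of them every tumor labelled Gli2CA lay below every NTC tumor, as in 17.9% of all tested genes. mt-Co1, the catalytic subunit of complex IV, had 2045, 1277 and 1560 FPKM in tumors labelled Gli2CA, against 2857, 2773 and 2587 FPKM in NTC tumors (log2 fold change -0.78, SE 0.30, limma adjusted p = 0.139). mt-Cytb, the cytochrome b of complex III and its sole mitochondrial subunit, had 908, 622 and 622 FPKM in tumors labelled Gli2CA, against 1434, 1403 and 1247 FPKM in NTC tumors (-0.94, SE 0.27, adjusted p = 0.0895). In both genes the Gli2CA tumor nearest to the NTC tumors was replicate 1.

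The complex I subunits of the mitochondrial genome, which form the proton-pumping membrane arm, gave the same order. mt-Nd1 (chrM:2751-3707) had 1034, 797 and 701 FPKM in tumors labelled Gli2CA, against 1593, 1434 and 1546 FPKM in NTC tumors. mt-Nd2 (chrM:3914-4951) had 479, 334 and 298 FPKM in tumors labelled Gli2CA, against 744, 692 and 706 FPKM in NTC tumors. mt-Nd4 (chrM:10167-11544) had 288, 212 and 167 FPKM in tumors labelled Gli2CA, against 521, 436 and 435 FPKM in NTC tumors. In these 3 genes each tumor labelled Gli2CA lay below each NTC tumor, and the lowest was replicate 3. mt-Nd5 (chrM:11742-13565) had 306, 198 and 223 FPKM in tumors labelled Gli2CA, against 469, 447 and 392 FPKM in NTC tumors. mt-Nd6 (chrM:13552-14070), the one messenger RNA read from the other strand, had 479, 446 and 340 FPKM in tumors labelled Gli2CA, against 728, 650 and 802 FPKM in NTC tumors. The strand setting of the counting is not known here, so fragments of mt-Nd6 and of RNA from the opposite strand cannot be told apart. The log2 fold changes of these 7 genes ran from -1.09 (mt-Nd4, SE 0.26, adjusted p = 0.0729) to -0.78 (mt-Co1), a range about as wide as the standard errors of the single genes, which ran from 0.25 to 0.30. Their limma adjusted p ran from 0.0729 to 0.139, and from 0.0678 to 0.124 in limma-voom.

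On the FPKM scale, which is per length, the order of levels was similar in both groups. In tumors labelled Gli2CA the means ran from mt-Co1 (1627 ± 388), mt-Nd1 (843.8 ± 172) and mt-Cytb (717 ± 165) through mt-Nd6 (422 ± 72.3) and mt-Nd2 (370.1 ± 95.7) to mt-Nd5 (242 ± 56.8) and mt-Nd4 (222 ± 60.9; SD, n = 3 for each). In NTC tumors they ran from mt-Co1 (2739 ± 138), mt-Nd1 (1524 ± 81.8) and mt-Cytb (1361 ± 100.2) through mt-Nd6 (727 ± 75.8) and mt-Nd2 (714 ± 26.6) to mt-Nd4 (464 ± 49.5) and mt-Nd5 (436 ± 39.3; SD, n = 3 for each). The neighbours mt-Nd6 and mt-Nd2, and the neighbours mt-Nd4 and mt-Nd5, did not differ beyond their spread in either group. Copies cover 63.6% of mt-Nd4 and 31.3% of mt-Co1, so these levels may not compare directly with those of the other genes. The effect of the copies was not tested.

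The members with identical nuclear copies were listed far lower, and their groups were closer. mt-Co2, the subunit of complex IV that takes electrons from cytochrome c, had 20.6, 19.9 and 15.8 FPKM in tumors labelled Gli2CA, against 29.7, 29.2 and 29.0 FPKM in NTC tumors (log2 fold change -0.64, SE 0.21, limma adjusted p = 0.104). mt-Co3, another core subunit of complex IV, had 32.5, 34.7 and 27.2 FPKM in tumors labelled Gli2CA, against 28.2, 30.9 and 37.9 FPKM in NTC tumors (-0.04, SE 0.22, adjusted p = 0.931). Its copy Gm28437 had nearly the same values, at 33.9, 31.6 and 29.4 FPKM in tumors labelled Gli2CA, against 27.5, 30.1 and 41.3 FPKM in NTC tumors. The groups overlapped for mt-Co3 and for its copy. mt-Atp6, the proton channel subunit of complex V, had 27.6, 27.7 and 24.1 FPKM in tumors labelled Gli2CA, against 29.5, 32.1 and 32.0 FPKM in NTC tumors (-0.24, SE 0.20, adjusted p = 0.451). mt-Nd3 was the one mitochondrial member listed higher, with 13.9, 14.4 and 14.7 FPKM in tumors labelled Gli2CA, against 9.29, 11.0 and 13.6 FPKM in NTC tumors (0.34, SE 0.22, adjusted p = 0.337). Its estimate turned negative once the trend on transcript length (-0.23) or GC content (-0.11) was removed.

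mt-Nd4l and mt-Atp8, the remaining members of the low class, rested on few fragments. mt-Nd4l had 23, 8 and 12 fragments in tumors labelled Gli2CA, against 27, 37 and 21 in NTC tumors, and mt-Atp8 had 6, 4 and 1 in tumors labelled Gli2CA, against 17, 12 and 12 in NTC tumors. Both are short, and both overlap a neighbouring gene, mt-Nd4 and mt-Atp6. The log2 fold change of mt-Atp8 was -1.46 (SE 0.39, limma adjusted p = 0.0827) and that of mt-Nd4l was -0.82 (SE 0.33, adjusted p = 0.153). Over the 5 members with an annotated full-length identical copy the median log2 fold change was -0.24. Over the 8 without one, mt-Atp8 among them, it was -0.91, and over the other 7 of these it was -0.87. The median of all tested genes was -0.04. The search covered annotated transcripts alone, so a copy of mt-Atp8 without annotation would not have been found. The sources do not give how the authors' counting treated fragments that fit several loci, and the part of the copies in these values was not tested.

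**Figure D1:**
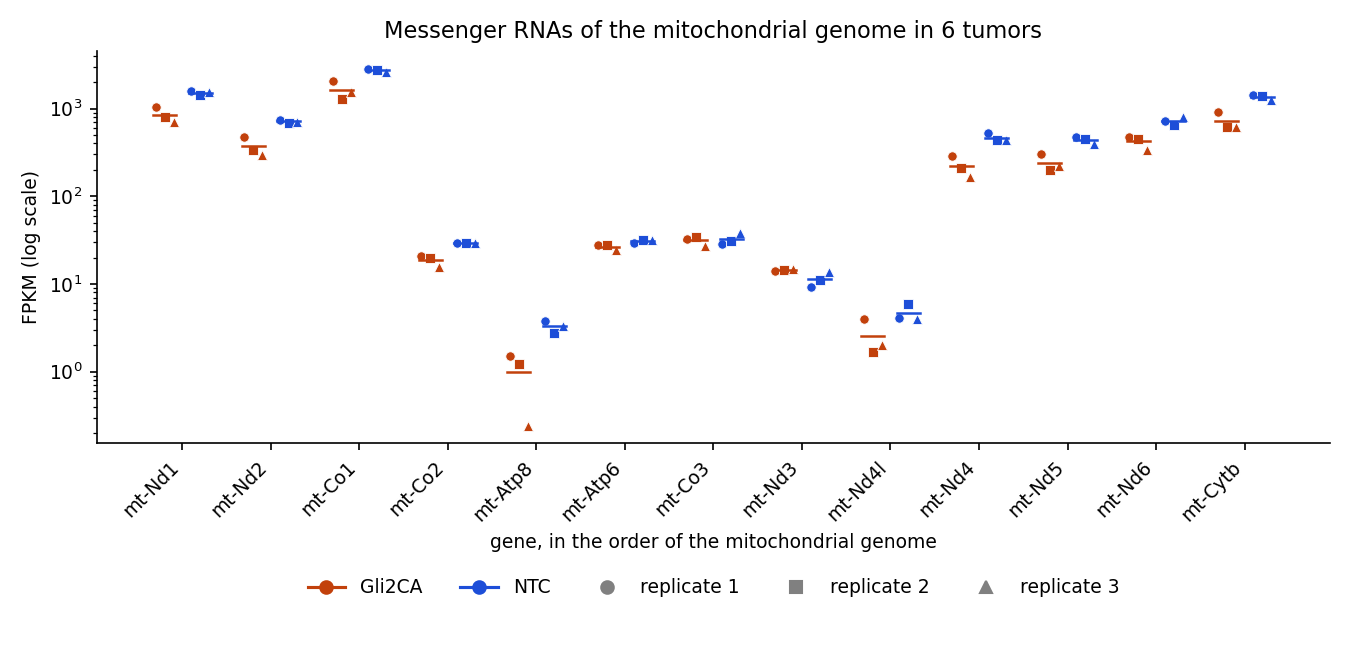
FPKM (log axis) of the 13 messenger RNAs of the mitochondrial genome in each tumor, with symbols for replicates and a line for each group mean, Gli2CA left of NTC. The 7 genes from mt-Nd1 to mt-Co1 and from mt-Nd4 to mt-Cytb lie between 167 and 2857 FPKM. In each of these 7, every tumor labelled Gli2CA lies below every NTC tumor, as in 17.9% of all tested genes. The 6 genes between them lie below 38 FPKM.

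The ribosomal RNAs of the mitochondrial genome did not share this split. mt-Rnr1 had 319, 465 and 266 FPKM in tumors labelled Gli2CA, against 296, 283 and 469 FPKM in NTC tumors (log2 fold change 0.00, SE 0.31, limma adjusted p = 0.997). mt-Rnr2 had 475, 713 and 505 FPKM in tumors labelled Gli2CA, against 379, 402 and 638 FPKM in NTC tumors (0.27, SE 0.30, adjusted p = 0.573). The groups overlapped in both. Poly-T selection is not made to capture ribosomal RNA, so these levels describe what was left after it.

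Taken as shares of all fragments, the 2 genomes stood apart. The mitochondrial members held 0.695%, 0.474% and 0.497% of the fragments of the tumors labelled Gli2CA, against 1.04%, 0.981% and 0.944% in NTC tumors. The nuclear members held 1.02%, 1.73% and 1.15% of the fragments of the tumors labelled Gli2CA, against 0.595%, 0.858% and 0.989% in NTC tumors. Neither share overlapped between the groups, but the nuclear shares of Gli2CA replicate 1 and NTC replicate 3 were close. The mean log2(FPKM + 0.5) of the mitochondrial members minus that of the nuclear members was -0.07, -0.99 and -0.69 in tumors labelled Gli2CA, against 1.26, 0.68 and 0.34 in NTC tumors. The difference between the group means was -1.35, where the pooled SD between tumors was 0.47. Leaving out each tumor in turn gave -1.61 to -1.10.

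The split was present in each complex where it could be measured. The log2 ratio of mitochondrial to nuclear fragments in complex I was -0.10, -1.29 and -0.86 in tumors labelled Gli2CA, against 1.28, 0.59 and 0.42 in NTC tumors. In complex III it was -0.10, -1.52 and -0.83 in tumors labelled Gli2CA, against 1.46, 0.85 and 0.41 in NTC tumors. In complex IV, where mt-Co1 made up nearly all of the mitochondrial fragments, it was 0.35, -1.26 and -0.20 in tumors labelled Gli2CA, against 1.76, 1.11 and 0.73 in NTC tumors. The groups did not overlap in any of these 3 complexes, and within each group the ratio still varied by over 0.8. No such ratio is given for complex V, both of whose mitochondrial members are in the low class.

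**Figure D2:**
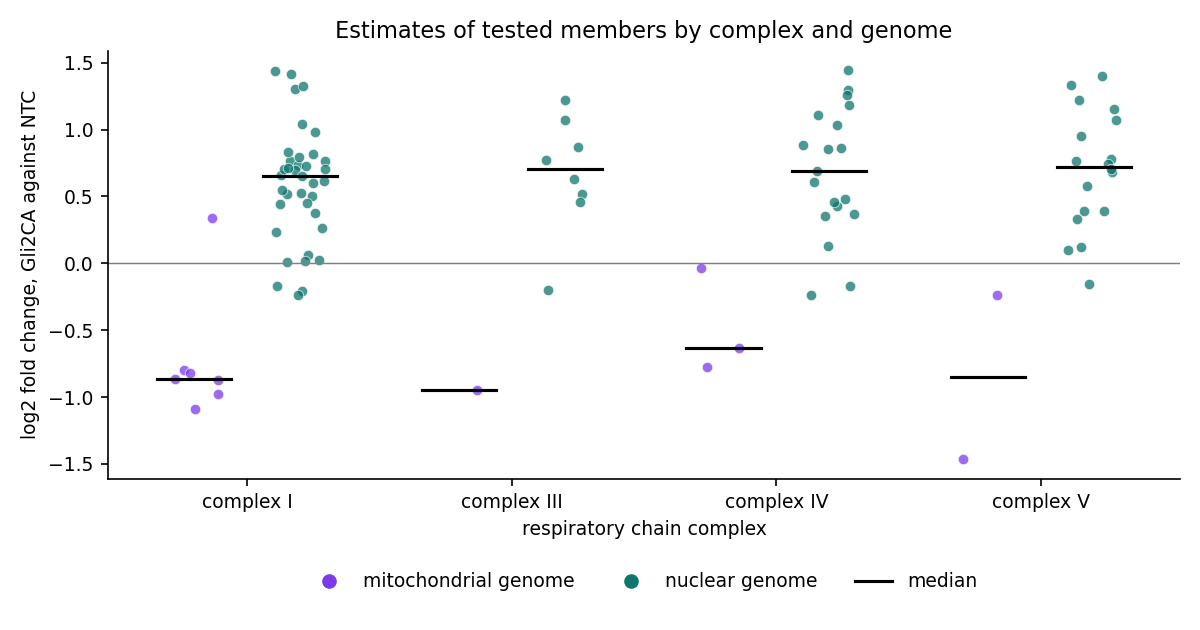
Log2 fold change of each tested member, Gli2CA against NTC, by complex, with mitochondrial members left and nuclear members right of each pair and a line for the median. Nuclear medians lie between 0.65 and 0.72 in the 4 complexes, and mitochondrial medians between -0.94 and -0.64. The mitochondrial value of complex III is mt-Cytb alone. That of complex V is over mt-Atp8 and mt-Atp6 only, both of the low class.

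The nuclear members stood higher as a group but with a wide spread between tumors. Their log2 fold changes ran from -0.24 to 1.44 with a median of 0.68, and 75 of 82 estimates were above 0, where 47.4% of all tested genes were above 0. The groups did not overlap, with Gli2CA higher, in 39 of 82, against 15.9% of all tested genes. Relative to the NTC mean, the median nuclear member lay at 0.39, 1.08 and 0.55 (log2) in tumors labelled Gli2CA, against -0.47, 0.12 and 0.36 in NTC tumors. Gli2CA replicate 2 was thus the highest library and NTC replicate 1 the lowest. Without Gli2CA replicate 2, 8 nuclear members had an unadjusted p below 0.05 and a higher estimate (13.2% of all tested genes). Without NTC replicate 1 it was 3 (6.78%), and without NTC replicate 2 it was 18 (11.1%). Without both Gli2CA replicate 2 and NTC replicate 1 it was 4 (10% of all tested genes), with a median of 0.24. The mitochondrial members depended less on those 2 libraries, with 8 of 13 lower at that level without both (9.94%) and a median of -0.68; their lowest count was 5, without Gli2CA replicate 3 (8.48%).

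**Figure D3:**
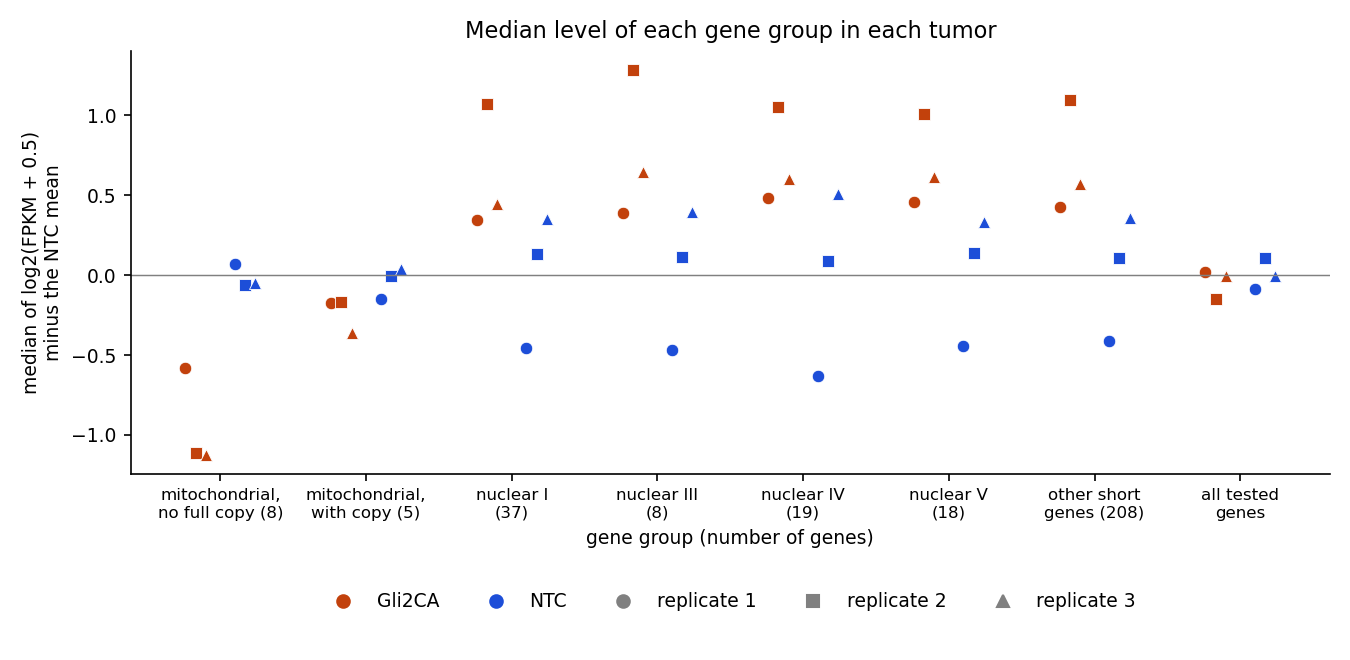
Median over each gene group of log2(FPKM + 0.5) minus the gene's NTC mean, for each tumor, with Gli2CA left of NTC and symbols for replicates. The 8 mitochondrial members without an annotated full-length identical nuclear copy, mt-Atp8 among them, lie at -0.58, -1.11 and -1.12 in tumors labelled Gli2CA. The nuclear members of each complex and the 208 other short protein-coding genes are highest in Gli2CA replicate 2 and lowest in NTC replicate 1.

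In complex I, 37 of 39 nuclear members were tested, with a median log2 fold change of 0.65. Of these, 13 were higher and 0 lower at an unadjusted p below 0.05 (12.8% and 14.7% of all tested genes). Ndufs4 (chr13:114287795-114388258), an accessory subunit needed for a stable NADH-oxidising arm, had the smallest p. It had 116, 245 and 134 FPKM in tumors labelled Gli2CA, against 39.5, 68.6 and 93.1 FPKM in NTC tumors (log2 fold change 1.30, SE 0.38, limma adjusted p = 0.0916). Ndufa7, another accessory subunit, had 275, 783 and 327 FPKM in tumors labelled Gli2CA, against 103, 204 and 213 FPKM in NTC tumors (1.32, SE 0.44, adjusted p = 0.108). Ndufb1-ps, which RefSeq lists under Ndufb1 as a protein-coding gene, had 125, 468 and 153 FPKM in tumors labelled Gli2CA, against 48.8, 81.3 and 111 FPKM in NTC tumors (1.44, SE 0.50, adjusted p = 0.117). Ndufv2, a flavoprotein subunit that binds an iron-sulfur cluster, had 164, 257 and 203 FPKM in tumors labelled Gli2CA, against 80.5, 129 and 149 FPKM in NTC tumors (0.82, SE 0.29, adjusted p = 0.125). In all 4 genes each tumor labelled Gli2CA was above each NTC tumor, and Gli2CA replicate 2 was the highest.

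The nuclear subunits that carry out the catalysis of complex I differed from its accessory subunits in their estimates. This division was made after the values had been seen, so it has no test. The 6 catalytic subunits compared (Ndufs1, Ndufs3, Ndufs7, Ndufs8, Ndufv1 and Ndufv2) had a median log2 fold change of 0.12, with 1 of 6 at an unadjusted p below 0.05. The 30 accessory subunits compared had a median of 0.70, with 12 at that level. In both sets all members at that level were higher, as were 12.8% of all tested genes. Ndufs1, the largest iron-sulfur subunit, had 45.8, 28.3 and 59.0 FPKM in tumors labelled Gli2CA, against 39.9, 57.7 and 54.3 FPKM in NTC tumors (-0.23, SE 0.30, limma adjusted p = 0.633). The groups overlapped. These catalytic subunits are also encoded by longer transcripts, with a median length of 890 bases against 638 for the accessory subunits. With the trend on transcript length removed, the medians were -0.23 for the catalytic and 0.24 for the accessory subunits. The part of length in this gap was not tested.

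All 8 nuclear members of complex III were tested, with a median of 0.70. Of these, 5 were higher and 0 lower at an unadjusted p below 0.05 (12.8% and 14.7% of all tested genes). Uqcrh, the small acidic hinge subunit beside cytochrome c1, had 496, 1359 and 550 FPKM in tumors labelled Gli2CA, against 183, 337 and 474 FPKM in NTC tumors (log2 fold change 1.22, SE 0.46, limma adjusted p = 0.138). Uqcr10, a small accessory subunit, had 242, 621 and 283 FPKM in tumors labelled Gli2CA, against 101, 192 and 234 FPKM in NTC tumors (1.07, SE 0.42, adjusted p = 0.149). The groups did not overlap for Uqcrh and Uqcr10, nor for the small subunits Uqcrq (0.87, SE 0.35) and Uqcr11 (0.78, SE 0.33) or for Uqcrfs1 (0.51, SE 0.22), the Rieske iron-sulfur protein. Of the large core subunits, Uqcrc2 had 162, 140 and 226 FPKM in tumors labelled Gli2CA, against 93.9, 149 and 141 FPKM in NTC tumors (0.46, SE 0.28, adjusted p = 0.306), and the groups overlapped. Uqcrc1 had 147, 85.7 and 138 FPKM in tumors labelled Gli2CA, against 128, 141 and 146 FPKM in NTC tumors (-0.20, SE 0.26, adjusted p = 0.64). Gli2CA replicate 2, the highest library for Uqcrh, was the lowest for Uqcrc1.

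In complex IV, 19 of 21 nuclear members were tested, Ndufa4 and its paralog Ndufa4l2 being counted here because the Ndufa4 protein is part of this complex. The median was 0.69, with 7 higher and 0 lower at an unadjusted p below 0.05 (12.8% and 14.7% of all tested genes). Cox7b, a small membrane subunit, had 279, 699 and 368 FPKM in tumors labelled Gli2CA, against 88.5, 178 and 225 FPKM in NTC tumors (log2 fold change 1.44, SE 0.43, limma adjusted p = 0.093). Cox7a2, the form of subunit 7a found in most tissues, had 287, 709 and 351 FPKM in tumors labelled Gli2CA, against 105, 207 and 222 FPKM in NTC tumors (1.29, SE 0.41, adjusted p = 0.101). Cox7c had 443, 1037 and 497 FPKM in tumors labelled Gli2CA, against 167, 292 and 399 FPKM in NTC tumors (1.18, SE 0.41, adjusted p = 0.12). Cox6b1, which faces the intermembrane space, had an estimate of 0.86 (SE 0.33, adjusted p = 0.141). In these 4 genes the groups did not overlap. Cox7a2l, which takes part in joining complexes III and IV into supercomplexes, had 208, 328 and 243 FPKM in tumors labelled Gli2CA, against 118, 164 and 203 FPKM in NTC tumors (0.69, SE 0.28, adjusted p = 0.159).

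Several complex IV subunits exist as pairs, one form in most tissues and one in heart and skeletal muscle or another setting. The muscle forms followed the muscle markers of each library. Cox6a2 had 10.9, 1.81 and 4.52 FPKM in tumors labelled Gli2CA, against 0.99, 1.60 and 19.7 FPKM in NTC tumors. Cox8b had 12.9, 0 and 3.44 FPKM in tumors labelled Gli2CA, against 0.249, 0.131 and 20.8 FPKM in NTC tumors. The summed FPKM of 12 skeletal muscle markers was 1182, 27.8 and 408 in tumors labelled Gli2CA, against 5.26, 6.11 and 1822 in NTC tumors. The highest library of all 3 was NTC replicate 3 and the next Gli2CA replicate 1, and the groups overlapped. Cox7a1 differed, with 15.7, 23.3 and 9.14 FPKM in tumors labelled Gli2CA, against 3.07, 3.88 and 16.8 FPKM in NTC tumors (log2 fold change 1.26, SE 0.58, limma adjusted p = 0.193), since its highest library was Gli2CA replicate 2. Their counterparts in most tissues were far more abundant, Cox8a having 370, 479 and 389 FPKM in tumors labelled Gli2CA, against 291, 412 and 442 FPKM in NTC tumors (0.13, SE 0.26, adjusted p = 0.775), an estimate that was below 0 after quantile scaling and after rescaling of protein-coding genes.

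**Figure D4:**
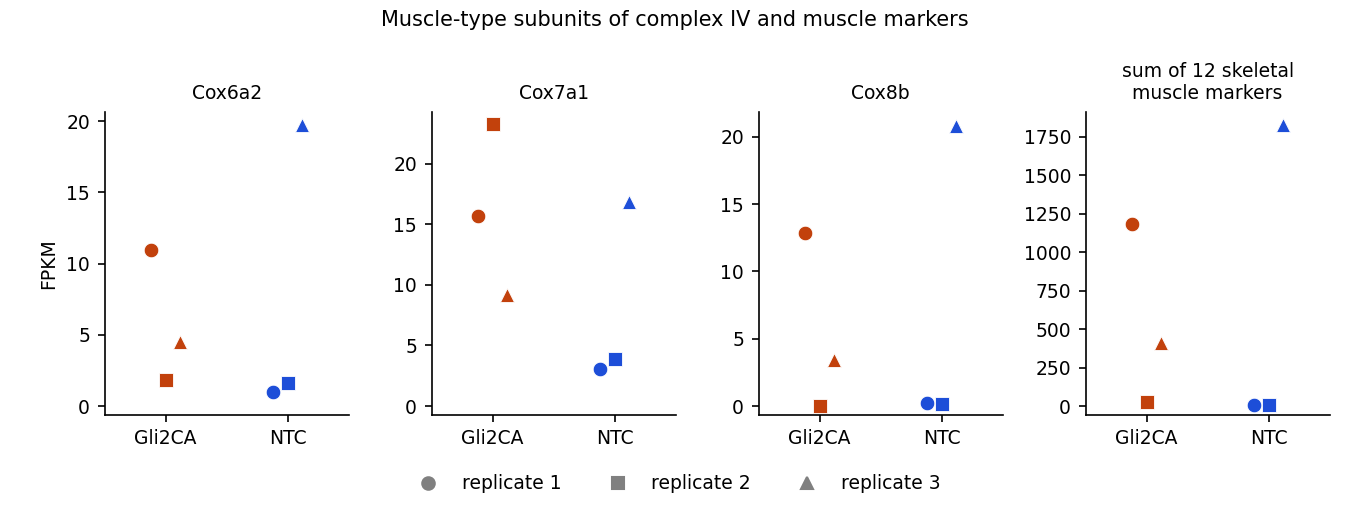
FPKM of 3 muscle-type complex IV subunits and the summed FPKM of 12 skeletal muscle markers in each tumor, Gli2CA left of NTC, with symbols for replicates. Cox6a2 and Cox8b are highest in NTC replicate 3 (19.7 and 20.8 FPKM) and then Gli2CA replicate 1, as the marker sum is; Cox7a1 is highest in Gli2CA replicate 2 (23.3 FPKM).

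The forms tied to low oxygen gave overlapping groups. Cox4i2, a form of subunit 4 induced by low oxygen in some tissues, had 11.1, 9.62 and 4.55 FPKM in tumors labelled Gli2CA, against 6.89, 6.55 and 15.8 FPKM in NTC tumors (log2 fold change -0.17, SE 0.41, limma adjusted p = 0.813). Its common counterpart Cox4i1 had 816, 1688 and 920 FPKM in tumors labelled Gli2CA, against 412, 623 and 782 FPKM in NTC tumors (0.89, SE 0.36, adjusted p = 0.161). Ndufa4l2, a paralog of Ndufa4 induced by hypoxia-inducible factors, had 58.6, 43.2 and 29.2 FPKM in tumors labelled Gli2CA, against 41.3, 20.9 and 31.0 FPKM in NTC tumors (0.48, SE 0.33, adjusted p = 0.359). Ndufa4 itself had 169, 617 and 239 FPKM in tumors labelled Gli2CA, against 75.6, 170 and 193 FPKM in NTC tumors (1.11, SE 0.51, adjusted p = 0.194). Cox4i1 separated the groups narrowly, and the other 3 did not. Of the forms found mainly in testis, Cox6b2 had between 4.63 and 17.4 FPKM in single tumors, Cox7b2 had 1, 5 and 0 fragments in tumors labelled Gli2CA and 0 in each NTC tumor, and Cox8c had 0 fragments in all 6.

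In complex V, 18 of 20 nuclear members were tested, with a median of 0.72. Of these, 11 were higher and 0 lower at an unadjusted p below 0.05 (12.8% and 14.7% of all tested genes). Atp5o, the stalk subunit that confers oligomycin sensitivity, had 102, 155 and 118 FPKM in tumors labelled Gli2CA, against 54.0, 78.2 and 87.3 FPKM in NTC tumors (log2 fold change 0.78, SE 0.26, limma adjusted p = 0.114). Atp5k, the membrane subunit e that supports dimers of the enzyme, had 177, 459 and 205 FPKM in tumors labelled Gli2CA, against 72.8, 132 and 157 FPKM in NTC tumors (1.15, SE 0.41, adjusted p = 0.125). Atp5mpl, a small membrane subunit, had 231, 875 and 280 FPKM in tumors labelled Gli2CA, against 92.4, 161 and 206 FPKM in NTC tumors (1.40, SE 0.50, adjusted p = 0.126). The groups did not overlap for these 3 genes or for the processed pseudogene Atp5l2-ps, which had between 9 and 38 fragments a tumor (1.07, SE 0.35, adjusted p = 0.108). Nor did they overlap for Atp5c1 (0.74, SE 0.27, adjusted p = 0.128) or Atp5e (1.34, SE 0.55, adjusted p = 0.163). The groups overlapped for Atp5d (0.10, SE 0.23, adjusted p = 0.798). In the catalytic head, Atp5b, its beta subunit, had 870, 505 and 1030 FPKM in tumors labelled Gli2CA, against 612, 785 and 726 FPKM in NTC tumors (0.13, SE 0.32, adjusted p = 0.824). Atp5a1, the alpha subunit, had 356, 243 and 378 FPKM in tumors labelled Gli2CA, against 333, 367 and 370 FPKM in NTC tumors (-0.16, SE 0.25, adjusted p = 0.71). Atpif1, the inhibitor that binds this head when the proton gradient fails, is no member by symbol and had an estimate of 0.94 (SE 0.34, adjusted p = 0.128).

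The estimates of the nuclear members went with transcript length. Across the 82 tested members, Spearman's rho between log2 length and log2 fold change was -0.43, a description only, since these genes share the same 6 libraries. The median log2 fold change was 0.82 in the shortest tertile (231 to 581 bases), 0.72 in the middle tertile and 0.44 in the longest (861 to 2666 bases). Other tested protein-coding genes showed a like gradient. Their median was 0.68 over the 208 genes with lengths of the shortest tertile and 0.38 over 938 genes of the middle range. It was -0.08 over 9027 genes of the longest range. Among all tested protein-coding genes grouped by length, the median was 0.19 near 925 bases and -0.26 near 2576 bases. The medians of the longest range may thus not compare at like length. Those 208 genes lay at 0.43, 1.09 and 0.57 (log2, relative to the NTC mean) in tumors labelled Gli2CA, against -0.41, 0.11 and 0.36 in NTC tumors. The nuclear members of the shortest tertile lay at 0.48, 1.57 and 0.64 in tumors labelled Gli2CA, against -0.62, 0.14 and 0.41 in NTC tumors, so both gene groups were highest in Gli2CA replicate 2 and lowest in NTC replicate 1.

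With a lowess trend on length removed from each library, the nuclear members moved towards the other genes and the mitochondrial members away from them. The nuclear median was then 0.25, with 15 of 82 higher and 2 lower at an unadjusted p below 0.05, where 13.6% of all tested genes were higher and 12.9% lower. Relative to the NTC mean the nuclear members lay at 0.16, 0.49 and 0.23 (log2) in tumors labelled Gli2CA, against -0.21, 0.03 and 0.20 in NTC tumors. Complex V had the highest median of the 4 complexes, 0.42, with 6 of 18 members (33.3%) higher at that level. The other complexes were near the share of all tested genes, 13.6%. Complex I had 5 of 37 higher (13.5%), complex III 1 of 8 (12.5%) and complex IV 3 of 19 (15.8%). The mitochondrial median was -1.07, with 11 of 13 lower at an unadjusted p below 0.05, and none of the 95 members was called by limma. Length, RNA quality and the difference between the groups were not separated further, and their part in the nuclear values was not tested.

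**Figure D5:**
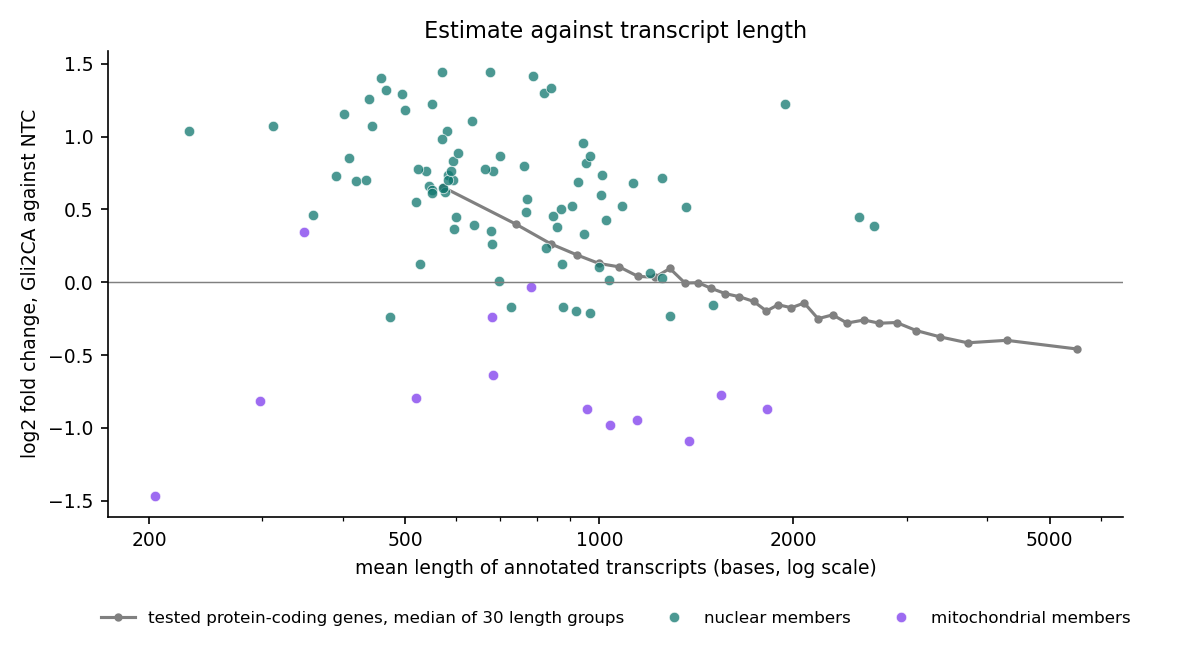
Log2 fold change, Gli2CA against NTC, by mean length of the annotated transcripts (log axis), for nuclear and mitochondrial members, with the median of tested protein-coding genes in 30 groups by length. Most nuclear members lie above the falling grey line (with the length trend removed, 61 of 82 estimates were above 0), and 12 of 13 mitochondrial members lie below 0.

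Promoters of some nuclear members hold letters bound by nuclear respiratory factor 1 (NRF1), a transcription factor known for its sites in respiratory chain genes. RefSeq promoters (GRCm38.p6, 250 bases before to 50 after the start) were found for 65 of the 82 tested nuclear members. The NRF1 letters (GCGC, any base, then TGCGC), searched on both strands, stood in the promoters of 15 of the 65 (23.1%), against 5.2% of all 27025 genes with a promoter. The ETS letters CCGGAAG stood in 14 (21.5%, against 9.9%) and the YY1 letters AAGATGGC in 10 (15.4%, against 3.2%), on either strand. One promoter each from complexes I, III, IV and V is shown, chosen after the values were seen. Each holds NRF1 letters, which most of the 65 lack. Of those shown, 2 belong to members with estimates above 1 (Ndufb4, Atp5k) and 2 to members with lower ones (Uqcrc1, Cox6a1). Ndufs4, Ndufa7 and Ndufb1-ps, also with estimates above 1, had 0 NRF1 and 0 ETS matches. Capitals mark NRF1 and ETS letters, the ETS letters reading CTTCCGG where they lie on the other strand.
Ndufb4, chr16:37654319-37654618, minus strand: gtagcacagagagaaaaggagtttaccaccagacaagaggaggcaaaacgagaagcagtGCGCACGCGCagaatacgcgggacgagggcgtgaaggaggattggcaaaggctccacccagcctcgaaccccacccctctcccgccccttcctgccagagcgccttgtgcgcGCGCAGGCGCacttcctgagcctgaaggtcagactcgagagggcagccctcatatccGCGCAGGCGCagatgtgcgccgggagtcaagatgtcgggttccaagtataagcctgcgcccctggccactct
Uqcrc1, chr9:108936398-108936697, plus strand: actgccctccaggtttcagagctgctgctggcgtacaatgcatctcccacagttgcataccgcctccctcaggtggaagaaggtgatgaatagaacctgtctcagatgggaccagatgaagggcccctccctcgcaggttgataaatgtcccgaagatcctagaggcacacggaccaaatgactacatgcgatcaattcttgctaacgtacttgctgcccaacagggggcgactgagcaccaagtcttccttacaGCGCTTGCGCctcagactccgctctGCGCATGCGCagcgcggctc
Cox6a1, chr5:115348909-115349208, minus strand: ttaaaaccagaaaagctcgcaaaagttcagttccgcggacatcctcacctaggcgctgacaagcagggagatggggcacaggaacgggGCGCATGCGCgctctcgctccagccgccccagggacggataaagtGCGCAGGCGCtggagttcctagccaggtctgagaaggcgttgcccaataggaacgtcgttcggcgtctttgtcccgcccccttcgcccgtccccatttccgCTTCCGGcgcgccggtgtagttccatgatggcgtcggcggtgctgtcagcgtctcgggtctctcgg
Atp5k, chr5:108434350-108434649, minus strand: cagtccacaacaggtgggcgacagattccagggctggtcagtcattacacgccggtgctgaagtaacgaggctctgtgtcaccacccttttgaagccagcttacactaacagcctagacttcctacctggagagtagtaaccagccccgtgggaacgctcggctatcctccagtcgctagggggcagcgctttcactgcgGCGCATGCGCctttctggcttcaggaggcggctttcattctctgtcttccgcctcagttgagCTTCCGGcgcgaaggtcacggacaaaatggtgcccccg
Ndufb4, an accessory subunit of complex I, had 80.9, 313 and 113 FPKM in tumors labelled Gli2CA, against 30.1, 61.0 and 80.2 FPKM in NTC tumors (log2 fold change 1.42, SE 0.52, limma adjusted p = 0.129). Cox6a1, the common form of subunit 6a, had 407, 561 and 426 FPKM in tumors labelled Gli2CA, against 287, 380 and 415 FPKM in NTC tumors (0.37, SE 0.26, adjusted p = 0.373). The median log2 fold change was 0.74 over the 15 members with NRF1 letters and 0.68 over the 50 without them. A match describes letters in this window and says nothing of binding.

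The other parts of electron transport were mixed. Sdha, the flavoprotein of complex II, had 156, 112 and 123 FPKM in tumors labelled Gli2CA, against 219, 197 and 217 FPKM in NTC tumors, with no overlap (log2 fold change -0.70, SE 0.22, limma adjusted p = 0.101). Sdhd, a membrane anchor of the same complex, had 148, 245 and 156 FPKM in tumors labelled Gli2CA, against 75.8, 110 and 142 FPKM in NTC tumors (0.75, SE 0.30, adjusted p = 0.157). The median over the 4 complex II genes was 0.15. Among 14 tested genes of the mobile carriers, 3 were higher and 0 lower at an unadjusted p below 0.05 (12.8% and 14.7% of all tested genes): Coq2 and Coq3, enzymes of ubiquinone synthesis, and Cycs, cytochrome c, which had 75.5, 75.3 and 102 FPKM in tumors labelled Gli2CA, against 34.1, 52.4 and 58.9 FPKM in NTC tumors (0.82, SE 0.27, adjusted p = 0.106).

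Assembly factors gave the one called gene near the chain. Of 15 tested factors for complex I, 4 were higher and 0 lower at an unadjusted p below 0.05 (12.8% and 14.7% of all tested genes), Ndufaf6 having the smallest p (1.14, SE 0.26, limma adjusted p = 0.0692). Of 10 for complexes II and III, 4 were higher at that level, among them Uqcc2 (1.64, SE 0.44, adjusted p = 0.0842), and of 5 for complex V, 3 were higher, among them Tmem70 (0.85, SE 0.24, adjusted p = 0.0873). Of 22 for complex IV, 9 were higher at that level and 1 was called: Higd1a, induced by low oxygen and linked to complex IV, stood at 243, 314 and 212 FPKM in tumors labelled Gli2CA, against 68.2, 74.0 and 74.6 FPKM in NTC tumors (1.80, SE 0.23, adjusted p = 0.0225). The groups lay far apart for Higd1a, whose NTC tumors differed little.

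The nuclear genes that make, process and read mitochondrial RNA had estimates of both signs, and their difference from the messenger RNAs was not tested. Of 20 genes for mitochondrial DNA replication and transcription, 5 were higher and 0 lower at an unadjusted p below 0.05 (12.8% and 14.7% of all tested genes), and 14 estimates were above 0, with a median of 0.25. Ssbp1, the single-strand DNA binding protein of the organelle, had 25.0, 34.9 and 32.5 FPKM in tumors labelled Gli2CA, against 9.94, 15.7 and 16.6 FPKM in NTC tumors (1.12, SE 0.26, limma adjusted p = 0.0692). Tefm, a transcription elongation factor there, had an estimate of 1.16 (SE 0.35, adjusted p = 0.0955). Of 20 genes for mitochondrial RNA processing and stability, 6 were higher and 0 lower at that level, and 16 estimates were above 0, with a median of 0.21. Slirp, which with Lrpprc stabilises mitochondrial messenger RNAs, had 3.59, 7.57 and 5.38 FPKM in tumors labelled Gli2CA, against 1.24, 1.89 and 2.37 FPKM in NTC tumors (1.34, SE 0.33, adjusted p = 0.0733). Of 77 mitochondrial ribosomal proteins, 42 were higher and 0 lower at that level, with a median of 0.59, and 20 protein synthesis factors had 1 higher and 2 lower, among them Oxa1l (-0.52, SE 0.21, adjusted p = 0.159), with 10 estimates above 0 and a median of 0.00.

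Import, turnover and regulator genes completed the comparison. Of 24 genes of mitochondrial protein import, 14 were higher and 1 lower at an unadjusted p below 0.05 (12.8% and 14.7% of all tested genes), with a median of 0.78. Tomm20, a receptor of the outer membrane, had 103, 216 and 132 FPKM in tumors labelled Gli2CA, against 41.7, 64.0 and 70.5 FPKM in NTC tumors (log2 fold change 1.31, SE 0.32, limma adjusted p = 0.0735). Of 11 mitophagy receptors and factors, 2 were higher and 2 lower at that level, shares near those of all tested genes. Bnip3, an outer-membrane mitophagy receptor induced by low oxygen, was the second called gene of the lists, at 713, 574 and 482 FPKM in tumors labelled Gli2CA, against 120, 84.7 and 101 FPKM in NTC tumors (2.52, SE 0.25, adjusted p = 0.0117). Bnip3l, its relative, had 245, 228 and 237 FPKM in tumors labelled Gli2CA, against 105, 127 and 128 FPKM in NTC tumors (0.98, SE 0.21, adjusted p = 0.0658), while Pink1, the kinase that marks depolarised mitochondria, had 33.7, 32.5 and 26.6 FPKM in tumors labelled Gli2CA, against 58.5, 59.9 and 53.4 FPKM in NTC tumors (-0.88, SE 0.20, adjusted p = 0.0692). Of 14 tested regulators of respiratory chain genes, 1 was higher at that level, Myc (0.73, SE 0.21, adjusted p = 0.089), and 3 were lower, among them Hcfc1 (-0.995, SE 0.29, adjusted p = 0.0905) and Sp1 (-0.74, SE 0.28, adjusted p = 0.143). Lars2, a mitochondrial leucyl-tRNA synthetase, had 165, 113 and 197 FPKM in tumors labelled Gli2CA, against 349, 201 and 872 FPKM in NTC tumors (-1.35, SE 0.49, adjusted p = 0.126).

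Marker lists of cell types differed between the groups to unlike degrees, and none of the markers tested was called by limma. The marker sums of fibroblasts, endothelial cells and macrophages did not overlap between the groups. Those of the erythroid, melanocyte, muscle and adipocyte lists did. At an unadjusted p below 0.05 in limma, 12.8% of all tested genes were higher and 14.7% lower. All 6 fibroblast markers tested had lower estimates in tumors labelled Gli2CA, 4 at an unadjusted p below 0.05, with sums of 4321, 3816 and 2606 FPKM in tumors labelled Gli2CA, against 22240, 6610 and 7107 FPKM in NTC tumors. NTC replicate 1, the library lowest in nuclear members, was thus the highest in fibroblast markers. All 5 endothelial markers had lower estimates (3 at that level; sums of 57.4 to 67.1 FPKM in tumors labelled Gli2CA, against 82.6 to 139 FPKM in NTC tumors), as had all 8 macrophage markers (3 at that level; sums of 1389 to 1667 FPKM in tumors labelled Gli2CA, against 1804 to 2800 FPKM in NTC tumors). The 5 erythroid markers had higher estimates, 2 at that level, with sums of 212, 965 and 164 FPKM in tumors labelled Gli2CA, against 55.7, 113 and 168 FPKM in NTC tumors. Gli2CA replicate 2, highest in nuclear members, was also highest in erythroid markers. The muscle and adipocyte marker lists had 0 genes at that level in either direction, and the adipocyte sums ran from 47.5 to 276 FPKM in tumors labelled Gli2CA, against 12.5 to 215 FPKM in NTC tumors. Of 7 melanocyte markers, Tyrp1 had 0 fragments in every tumor, and Tyr, Dct and Mlana had at most 18 fragments each over the 6 tumors. The 3 tested, Pmel, Mitf and Sox10, had lower estimates, with Mitf (-0.58, SE 0.22, limma adjusted p = 0.135) and Sox10 (-0.85, SE 0.33, adjusted p = 0.147) at an unadjusted p below 0.05, and the list's sum, almost all of it Sox10, ran from 58.9 to 104 FPKM in tumors labelled Gli2CA, against 95.9 to 186 FPKM in NTC tumors. The part of these cell types in the values of the respiratory chain was not tested.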

How the data were processed

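RNA from 6 whole tumors was selected with poly-T beads, fragmented and primed with random hexamers, per the labels' protocols. The authors deposited FPKM per gene and sample; the aligner, counting tool, build, strand setting and handling of fragments that fit several loci are steps not given in the sources used here. Columns were matched to samples by name, and groups came from the titles. Gene identifiers were joined to GENCODE M21 symbols (GRCm38), which 54495 of 54532 genes had. FPKM times mean transcript length gave whole fragments, within 0.1, for 99.5% to 99.6% of low values of genes with 1 transcript, which gave the depth per sample; members with few fragments are named as such.

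The test was limma 3.58.1 in R 4.3.3, with eBayes and a variance trend, of Gli2CA against NTC on log2(FPKM + 0.5), for genes with a mean of at least 0.5 FPKM, two-sided, adjusted by Benjamini-Hochberg over all 15820 genes, threshold 0.05. This scale understates changes of low genes. The procedure was tested on simulated data. Copies were searched with BLAST 2.17.0. Members and lists were chosen with earlier results of these data known, so no list was tested. Named genes were all mitochondrial members, the 4 nuclear members per complex with the smallest p, isoform pairs, 2 regulators and up to 3 genes per list. Ndufs1, Ndufb4, Uqcrfs1, Uqcrc1, Uqcrc2, Atp5a1, Atp5b, Atp5c1, Atp5d and Atp5e were added after their values were seen. Alternatives covered pseudocount, filter, scaling, length, GC content, test, replicate block and each sample left out. Leaving out both end libraries, members with identical copies, or noncoding members was chosen after seeing the data. Some details of single items are not reported here.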

Additional observations from a re-analysis of the deposited data

How the results depend on the processing

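The count of all called genes, 55, was 1588 with array weights, 145 with a filter at 1 FPKM, 105 in limma-voom, 3 with no filter, 736 with protein-coding genes alone rescaled, 36 after quantile scaling, 101 with robust eBayes, 96 when scaled on nuclear genes, and 4 to 97 with 1 sample left out. The count of called members, 0, was 8 with array weights and 6 with protein-coding genes alone rescaled, all mitochondrial and lower, and 0 in each fit without 1 sample. The rescaling of protein-coding genes shifted the median of all genes to -0.29. The correlations of deviations did not settle whether replicate numbers pair the tumors. They were 0.35, 0.22 and 0.02 for the same-numbered pairs, against -0.285 to 0.078 for the others. Replicates 1 and 2 thus correlated best with their own number. Gli2CA replicate 3 correlated about equally with NTC replicate 1 (0.025) and NTC replicate 3 (0.024). With a replicate block, 1928 genes and 11 members (8 nuclear higher, 3 mitochondrial lower) were called, which the labels give no ground to prefer. The mitochondrial median, -0.82, was -1.23 with the GC trend removed, -1.07 with the length trend removed, -1.11 after quantile scaling, and -1.03 to -0.73 with 1 sample left out. The nuclear median, 0.68, was 0.25 with the length trend removed, 0.24 without both end libraries, and 0.43 to 0.88 with 1 sample left out. The mitochondrial minus nuclear difference kept its sign under every alternative run, from -1.79 to -0.89. Both medians also kept their sign. The cause was not tested for these shifts, apart from fewer genes or samples in the fits where that is the alternative.

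Of 103 named genes, 13 had an estimate that changed sign somewhere. With the length trend removed mt-Nd3 was -0.23, Cox6a2 -0.084, Cox6a1 -0.13, Cox8b -0.11, Cox8a -0.40 and mt-Rnr1 -0.20. With the GC trend removed mt-Nd3 was -0.11, Cox4i2 0.055, Pmel 0.072, mt-Rnr2 -0.14 and mt-Rnr1 -0.40. Without both end libraries Cox8a was -0.17, Lep 0.73, Plin4 0.52, mt-Rnr2 -0.049 and mt-Rnr1 -0.32. With array weights Lep was 0.24, Plin4 0.16 and mt-Rnr1 -0.20. After quantile scaling Cox8a was -0.10 and mt-Rnr1 -0.21, Cox8a was -0.076 with protein-coding genes rescaled, and mt-Rnr1 was -0.0020 in limma-voom and -0.0040 when scaled on nuclear genes. With 1 sample left out mt-Co3 ran from -0.13 to 0.082, Cox4i2 from -0.40 to 0.22, Cox6a2 from -0.35 to 1.53, Cox8b from -0.62 to 2.11, Cox8a from -0.057 to 0.24. In the same fits Cox6b2 ran from -0.59 to 0.23, Lep from -1.76 to 0.14, Plin4 from -1.003 to 0.16, Pmel from -0.43 to 0.10, mt-Rnr1 from -0.22 to 0.23. Depth limits mt-Atp8, mt-Nd4l, Cox7b2 and Atp5l2-ps, with at most 38 fragments in any tumor.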
